A study of Mus musculus with 24 samples.

Results

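Rabep2, Il21r, Msr1 and Mtmr7 are 4 of the 53465 genes counted in the brains of 12 mice, and were grouped because each has been studied as a candidate gene at a mouse locus for infarct volume or for the collateral vessels that limit it. The rule that chose them names the genes and uses no value measured here, although they were chosen with earlier results of these data known. Of the animals, 6 were CAST/EiJ and 6 WSB/EiJ, inbred strains descended from wild mice, and the study asked which genes differ between them because a blocked cerebral artery leaves infarcts of unequal volume in these strains. The labels give the tissue as brain, with strain, animal number and sequencing lane, and name no surgery, treatment, sex, age, genotype or transgene. Of the 4 genes, 3 had enough reads to be tested between the strains, and Msr1 did not.

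The proteins have unlike jobs. Rabep2 encodes a rabaptin, an effector of Rab GTPases on early endosomes, where it takes part in the return of internalized receptors such as the VEGF receptor encoded by Kdr to the cell surface; it has been studied for the number of native collateral arteries in the brain. Il21r encodes the receptor chain specific for interleukin 21, which signals with the common gamma chain through Jak1, Jak3 and Stat3 and is best known in lymphocytes. Msr1 encodes the class A scavenger receptor of macrophages, which binds modified lipoproteins and debris. Mtmr7 encodes a myotubularin-related phosphatase that removes a phosphate from phosphatidylinositol 3-phosphate, the lipid that marks early endosomes, and from an inositol phosphate.

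The genes lie in pairs. On chromosome 7 (GRCm38, GENCODE M21), Il21r (125603429 to 125633570, plus strand) and Rabep2 (126428759 to 126449245, plus strand) are separated by 795 kb. On chromosome 8, Msr1 (39581685 to 39642673, minus strand) and Mtmr7 (40551095 to 40634797, minus strand) are separated by 908 kb. The last part of Rabep2 overlaps Atp2a1, a calcium pump gene on the opposite strand, so that 30.8% of the Rabep2 exon bases lie inside the body of Atp2a1. Il21r and Msr1 overlap no other counted gene, and Mtmr7 overlaps Vps37a at 0.900% of its exon bases. Reads of Rabep2 and Atp2a1 cannot be told apart where the genes overlap if counting ignored strand, which was not stated. Of the 32-base words of the Rabep2 transcripts, 12.6% also occur in another gene on either strand.

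The promoters of the chromosome 7 pair differ in their content of CG dinucleotides, and are shown because the genes lie on the same chromosome at unlike levels. The reference sequences are from RefSeq (GRCm38.p6, 250 bases before the RefSeq start of each gene, plus strand), chr7:126428517-126428766 and chr7:125603179-125603428, in which capitals mark each CG.
Rabep2: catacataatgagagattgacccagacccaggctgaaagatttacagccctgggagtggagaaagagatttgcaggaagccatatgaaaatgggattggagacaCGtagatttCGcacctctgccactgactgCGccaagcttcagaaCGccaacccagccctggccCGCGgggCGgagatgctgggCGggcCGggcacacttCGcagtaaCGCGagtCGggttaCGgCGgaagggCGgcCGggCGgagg
Il21r: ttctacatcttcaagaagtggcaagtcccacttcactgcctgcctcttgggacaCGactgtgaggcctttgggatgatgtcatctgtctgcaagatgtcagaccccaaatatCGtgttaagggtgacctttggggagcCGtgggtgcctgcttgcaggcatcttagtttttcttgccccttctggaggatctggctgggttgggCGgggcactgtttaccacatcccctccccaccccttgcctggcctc
The Rabep2 window holds 18 CG dinucleotides, more than 78.3% of 32851 promoter windows of the same length, and the Il21r window holds 4, more than 37.8% of them; the median is 6. Of 2 motifs searched on both strands, the GC box GGGCGG was in both windows and in 32.7% of all windows, and the CCAAT box, CCAAT, was in the Rabep2 window, not in that of Il21r, and in 33.85% of all windows. A match is a description of the letters and not a bound site. These are sequences of the reference strain, and the alleles of CAST and WSB were not analysed here. The table used had matches for 2 of the 4 genes, and Msr1 and Mtmr7 had none.

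Reads in genes numbered 38771135 to 46513232 per CAST animal and 32982569 to 45772849 per WSB animal. Library indexes 17 to 22 were all CAST and 23 to 28 all WSB, so index order and strain cannot be told apart. CAST_142 stood apart from the other 11 animals: the summed level of 5 cerebellar neuron markers was 1226 CPM (read counts scaled to library size, with TMM factors) in it and 0.815 to 40.9 CPM in the others, and that of 6 striatal markers was 101 CPM against 501 to 1070 CPM. Results that turn on CAST_142 are therefore given with and without it. Of 858 protein-coding genes that lie wholly inside other genes although at least 90% of their exon bases are outside other exons, 852 were listed at 0 in every animal, against 2269 of 20657 other protein-coding genes. Among the genes used here Rab4a, Rab4b, Il2rg, P2ry12, Tubb3, Gfap, Cbln1, Pcp2 and Ms4a1 were listed at 0 and overlap other genes over nearly all of their exon bases, so nothing is said of their expression. The cerebellar sum therefore rests on Cbln3, Gabra6 and Fat2. Of 5 pan-neuronal markers 4 were detected, and they summed to 3953 to 5317 CPM over all animals. Snap25, a synaptic vesicle fusion protein and the most abundant of them, was at 2070 and 2293 CPM in CAST and WSB, and Rgs9, the most abundant striatal marker, was at 28.4 CPM in CAST_142 and a mean of 268 CPM in WSB.

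Per kb of exon the 4 genes stood in the order Mtmr7, Rabep2, Il21r and Msr1. Their mean levels over all 12 animals were 17.4, 2.42, 0.450 and 0.0308 CPM per kb of exon, above 87.8%, 54.1%, 40.0% and 27.1% of protein-coding genes. Because reads may have been assigned to introns as well, the levels were also taken per kb of gene body, where they were 0.928, 0.628, 0.0496 and 0.00321 CPM per kb. On that scale they were above 68.05%, 62.1%, 38.5% and 25.1% of protein-coding genes. The order was the same on both scales, but Mtmr7 and Rabep2 stood closer together per kb of gene body. Reads in the 30.8% of Rabep2 exon bases inside Atp2a1 may not have been counted, which would make the level and rank of Rabep2 too low. Mtmr7 had the highest level of the 4 on these scales, and the receptors Il21r and Msr1 were at low levels.

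**Figure D1:**
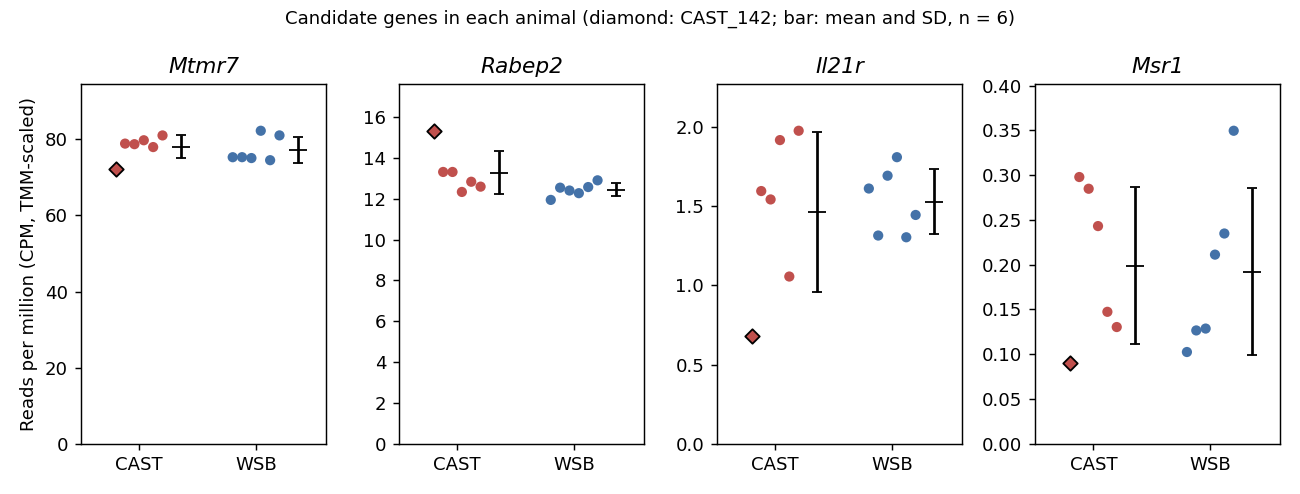
Level of each candidate gene in each animal, in CPM on a linear axis from 0, with CAST in red, WSB in blue, CAST_142 as a diamond, and a bar for the mean and SD of 6 animals. The strains overlap for all 4 genes, and CAST_142 is the highest CAST animal for Rabep2 (15.3 CPM) and the lowest for Mtmr7, Il21r and Msr1 (72.1, 0.678 and 0.0904 CPM).

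None of the tested candidates was called different between CAST and WSB, and for Rabep2 an exact permutation test and the model differed. Read counts differed at 42.7% of the 18425 tested genes by edgeR's quasi-likelihood test, called at a Benjamini-Hochberg adjusted value under 0.05. These were 7866 genes (21.5% of tested genes higher and 21.2% lower in CAST), and 0 of the 3 tested candidates were among them. At an unadjusted p under 0.05 the count was also 0 of 3, and the share of all tested genes at that threshold is not given here. DESeq2 and limma-voom likewise called 0 of 3. Genes called in all numbered 6567 to 9537 over the alternatives run, with the highest number by DESeq2. For 27.1% of tested genes every CAST animal lay on 1 side of every WSB animal, and for 0 of the 3 tested candidates was this so. The strains also overlapped for Msr1, which was not tested. With so few genes nothing is read from these counts, and each gene is given with its interval.

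Mtmr7, the endosomal lipid phosphatase, had 2727 to 3731 reads per animal. Its lowest, median and highest levels were 72.1, 78.8 and 81.0 CPM in CAST and 74.5, 75.3 and 82.3 CPM in WSB. CAST_142 was the lowest of all 12 animals and a WSB animal the highest, and the groups overlapped over most of their range. The mean was 78.1 ± 3.10 CPM (SD, n = 6) in CAST and 77.3 ± 3.44 CPM (SD, n = 6) in WSB. The log2 difference, CAST minus WSB, was 0.015 ± 0.040 (SE; edgeR adjusted p = 0.783), with a 95% interval of -0.071 to 0.10, or 0.952 to 1.07 times. Of all tested genes 4.69% had a smaller absolute log2 difference, and the median of these differences was 0.22. Mtmr7 had a coefficient of variation of 3.97% in CAST and 4.45% in WSB, where counting error alone would give 1.73% and 1.80%, and of 1.47% in CAST without CAST_142, where it would give 1.72%.

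Rabep2, the endosomal Rab effector, had 407 to 679 reads per animal. Its lowest, median and highest levels were 12.3, 13.1 and 15.3 CPM in CAST and 11.95, 12.5 and 12.9 CPM in WSB. CAST_142, at 15.3 CPM, was the highest, and the other 5 CAST animals (12.3 to 13.3 CPM) overlapped with WSB. The mean was 13.3 ± 1.07 CPM (SD, n = 6) in CAST and 12.45 ± 0.321 CPM (SD, n = 6) in WSB. The log2 difference was 0.095 ± 0.057 (SE; edgeR adjusted p = 0.2, unadjusted p = 0.118), with a 95% interval of -0.028 to 0.22, or 0.981 to 1.16 times. Without CAST_142 it was 0.047 ± 0.046 (SE; edgeR adjusted p = 0.432), under the value of all animals by more than 1.5 times. Permuting the strain labels in every way (exact, on log2 CPM, chosen after the data were seen, not adjusted for the 4 genes) gave p = 0.0498 for Rabep2 with a difference of 0.091, higher in CAST, and p = 0.0996 without CAST_142. The coefficient of variation was 8.09% in CAST, above the 4.18% of counting error, but 3.37% without CAST_142 (counting error 4.27%) and 2.58% in WSB (counting error 4.48%).

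Il21r, the interleukin 21 receptor, had 30 to 91 reads per animal. Its lowest, median and highest levels were 0.678, 1.57 and 1.98 CPM in CAST and 1.30, 1.53 and 1.81 CPM in WSB. The CAST animals enclosed the whole range of WSB, with CAST_142 lowest, at 30 reads. The mean was 1.46 ± 0.505 CPM (SD, n = 6) in CAST and 1.53 ± 0.208 CPM (SD, n = 6) in WSB. The log2 difference was -0.066 ± 0.22 (SE; edgeR adjusted p = 0.837), with a 95% interval of -0.55 to 0.42, or 0.683 to 1.33 times. Differences of either sign within this interval are compatible with the data. Without CAST_142 the log2 difference was 0.079 ± 0.16 (SE; edgeR adjusted p = 0.727), with the opposite sign, and without CAST_202 it was 0.015 ± 0.23 (SE; edgeR adjusted p = 0.967). The coefficient of variation was 34.6% in CAST, above the 12.7% of counting error, and 22.7% without CAST_142, where counting error would give 12.04%. It was 13.6% in WSB, near the 12.8% of counting error.

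Msr1, the macrophage scavenger receptor, had 4 to 15 reads per animal and fell under the filter on low counts. Its lowest, median and highest levels were 0.0904, 0.195 and 0.298 CPM in CAST and 0.102, 0.170 and 0.3496 CPM in WSB. The lowest value was again that of CAST_142, with 4 reads, and the highest that of a WSB animal. Over 6 animals the reads summed to 51 in CAST and 46 in WSB, a ratio, relative to library size, of 1.03 with an exact 95% interval of 0.680 to 1.57, which covers counting error only. On log2 CPM, exact permutation gave a two-sided p = 0.879. Fitted with no filter on low counts, the log2 difference was 0.047 ± 0.37 (SE; edgeR adjusted p = 0.951), with bounds of 0.596 and 1.79 times. Differences of either sign within these bounds are compatible with the data.

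Mtmr7, Il21r and Msr1 were lowest among the CAST animals in CAST_142, and so were the summed levels of 6 of 13 marker lists: microglia, border macrophages, endothelium, striatum, olfactory bulb and choroid plexus. The sums of 4 lists (lymphocytes, astrocytes, oligodendrocytes and cerebellar neurons) were highest there. Of 12 microglia markers, 11 were tested, 1 was higher and 5 were lower in CAST (54.55% called, against 42.7% of all tested genes), and P2ry12 was listed at 0. Their summed level was 176 CPM in CAST_142, 261 to 293 CPM in the other 5 CAST animals and 276 to 327 CPM in WSB. The most abundant of them, the colony stimulating factor receptor gene Csf1r, was at 45.3 CPM in CAST_142 and 70.55 to 83.9 CPM in the other CAST animals. The 7 border macrophage markers, of which 1 was higher and 2 lower in CAST (42.9% called, against 42.7%), summed to 8.65 CPM in CAST_142, to 18.6 to 33.2 CPM in the other CAST animals and to 14.6 to 17.8 CPM in WSB. Cd163, a hemoglobin scavenger receptor of these macrophages, was at 1.40 CPM in CAST_142 and up to 22.2 CPM in another CAST animal. Cd163 and the mannose receptor Mrc1 (3.14 CPM in CAST_142, up to 7.09 CPM in another) made up most of this sum. Lyve1 was also lowest in CAST_142, whereas Cbr2 was highest there (0.316 CPM) and F13a1, Pf4 and Ms4a7 lay within the range of the other CAST animals. Without CAST_142, Cd163 was called higher in CAST, with a log2 difference of 1.25 (edgeR adjusted p = 0.000608, and 0.0832 with all animals). In bulk tissue, fewer cells of a type and less RNA per cell cannot be told apart.

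Of the other lists, the 8 endothelial markers summed to 161 CPM in CAST_142 and 173 to 194 CPM in the other CAST animals. The 5 astrocyte markers, of which Gfap was listed at 0, summed to 2013 against 1220 to 1378 CPM. The olfactory bulb markers summed to 22.6 CPM in CAST_142 and 24.7 to 52.3 CPM in the other CAST animals. Of these markers, Cdhr1 was lowest among CAST animals in CAST_142 (8.40 CPM), whereas Eomes was highest there (13.3 CPM). Doc2g and Tbx21 lay within the range of the other CAST animals, so the low sum does not describe all olfactory bulb markers. The choroid plexus markers summed to 128 CPM in CAST_142 against 273 to 532.5 CPM. The oligodendrocyte markers summed to 3599 against 2734 to 3372 CPM. In WSB these sums were 15.6 to 218 CPM (olfactory bulb), 55.7 to 722 CPM (choroid plexus) and 1973 to 4694 CPM (oligodendrocytes). CAST_142 lay within the WSB range for each of these lists. Markers of blood cells were near 0 in all animals: 5 monocyte and neutrophil markers summed to 0.489 to 1.28 CPM and 7 lymphocyte markers, with Ms4a1 listed at 0, to 0.303 to 0.652 CPM, with CAST_142 at 0.633 CPM, above the other CAST animals. S100a9, a calcium-binding protein of neutrophils, was the one tested monocyte and neutrophil marker and was higher in CAST, at 0.369 against 0.179 CPM (edgeR adjusted p = 0.0174). The part of these cell types or brain regions in the levels of Rabep2, Il21r, Msr1 and Mtmr7 was not tested. Without CAST_142, the levels were 12.9 ± 0.434 CPM for Rabep2, 1.62 ± 0.368 CPM for Il21r, 0.221 ± 0.0777 CPM for Msr1 and 79.3 ± 1.17 CPM for Mtmr7 in CAST (SD, n = 5).

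**Figure D2:**
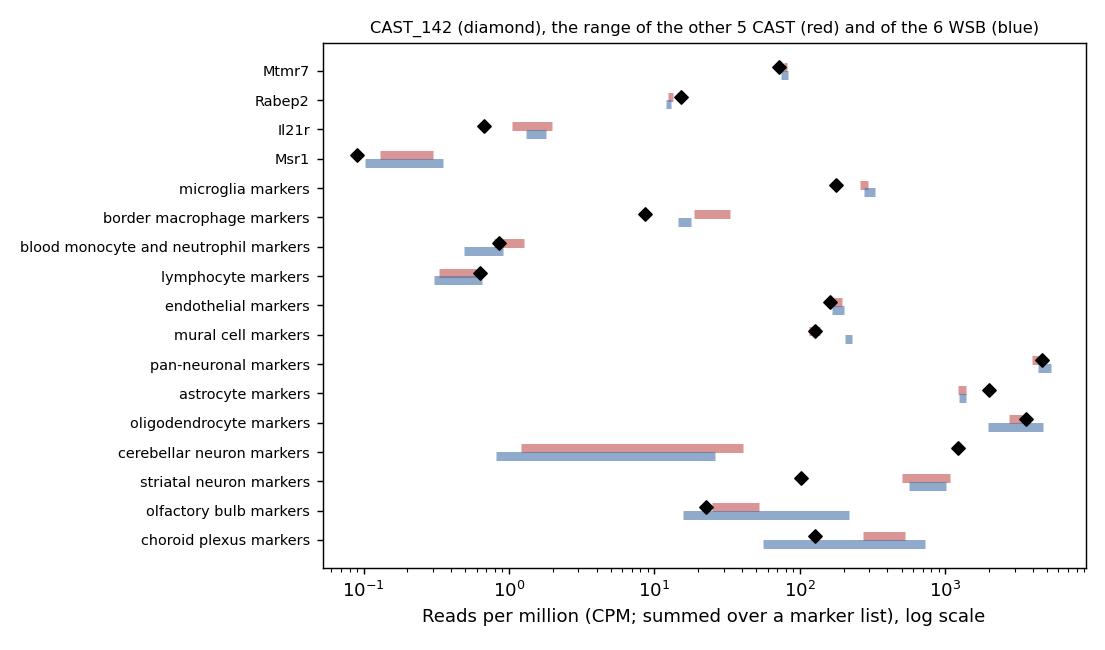
Levels of the candidate genes, and summed levels of each marker list, in CPM on a log axis. The diamond is CAST_142, red bars span the other 5 CAST animals and blue bars the 6 WSB animals; CAST_142 lies below the other CAST animals for Mtmr7, Il21r, Msr1 and the microglia markers (176 CPM) and above them for Rabep2 and the cerebellar markers (1226 CPM).

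Of 19 Rab effectors, adaptors and partners of the early endosome, 17 were tested, 3 were higher and 4 lower in CAST and 10 were not called (41.2% called, against 42.7% of all tested genes), with a median log2 difference of 0.011, against 0.0046 over all tested genes. Rabep1, the close relative of Rabep2, was at 195 ± 8.39 (SD, n = 6) against 185 ± 9.69 CPM, CAST first as in all pairs from here on, and was not called (edgeR adjusted p = 0.180). Rabgef1, which encodes the Rab5 activator that binds rabaptins, was at 41.3 and 40.2 CPM (edgeR adjusted p = 0.433). Rab11b, a GTPase of recycling endosomes, was lower in CAST, at 47.5 ± 3.37 against 70.1 ± 2.41 CPM, with ranges that did not overlap. Rab5b, a GTPase of early endosomes, was higher, at 118 ± 1.25 against 101 ± 3.37 CPM, and so was Appl1, a Rab5 effector, at 158 ± 5.25 against 137 ± 6.23 CPM (SD, n = 6 each). Rab11b and Rab5b share 15.25% and 11.7% of their 32-base words with other genes.

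Kdr, the VEGF receptor that rabaptins help to recycle, was lower in CAST. Its levels ran from 12.3 to 15.0 CPM in CAST and from 15.9 to 19.9 CPM in WSB, so the strains did not overlap. The means were 13.8 ± 1.12 and 18.9 ± 1.504 CPM (SD, n = 6 each), with the log2 difference at -0.45 ± 0.069 (SE; edgeR adjusted p = 1.3e-04). Vegfa, the ligand, was higher in CAST, at 138.3 ± 19.4 against 100.1 ± 7.75 CPM. Clic4, a chloride channel protein that has been studied in collateral formation, was lower, at 67.3 ± 4.59 against 96.7 ± 6.32 CPM, again with no overlap. Of 21 genes of VEGF and Notch signalling and collateral vessels, 20 were tested, 3 were higher and 2 lower in CAST and 15 were not called (25% called, against 42.7% of all tested genes, median log2 difference -0.026). Adam10, a protease that cleaves Notch receptors, was the most abundant gene not called, at 105 ± 5.21 and 104 ± 2.45 CPM. Gja5, the gene of an arterial connexin, fell under the filter, with 1 to 17 reads per animal. Of 8 endothelial markers, 4 were higher and 2 lower in CAST (75% called), and their summed level was 161 to 194 CPM in CAST and 166 to 201.3 CPM in WSB. Slco1c1, a thyroid hormone transporter of brain endothelium and the most abundant of them, was lower in CAST, at 69.4 against 86.5 CPM (edgeR adjusted p = 0.00763), and so was Tek. Pecam1, Tie1, Emcn and Erg were higher in CAST, with log2 differences of 0.32 to 0.59 and no overlap of the strains. Of 8 mural cell markers, the genes of pericytes and vascular smooth muscle, 7 were tested, 0 were higher and 4 lower in CAST (57.1% called), and their summed level was 115 to 137.5 CPM in CAST and 204 to 228 CPM in WSB, with no overlap. Rgs5, a gene typical of pericytes and the most abundant of these, was at 45.8 ± 4.03 against 117 ± 9.20 CPM (SD, n = 6), 2.56-fold higher in WSB (edgeR adjusted p = 2.26e-09). Rgs5 and Vtn (22.3 against 41.2 CPM) made up most of the difference in the mural sum. Pdgfrb and Abcc9 were also called lower in CAST. Kcnj8, Acta2 and Myh11 were not called, with log2 differences of -0.075, 0.34 and 0.028, so the sum does not describe all mural markers. The part of mural cells in the levels of Kdr, Vegfa and Clic4 was not tested.

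**Figure D3:**
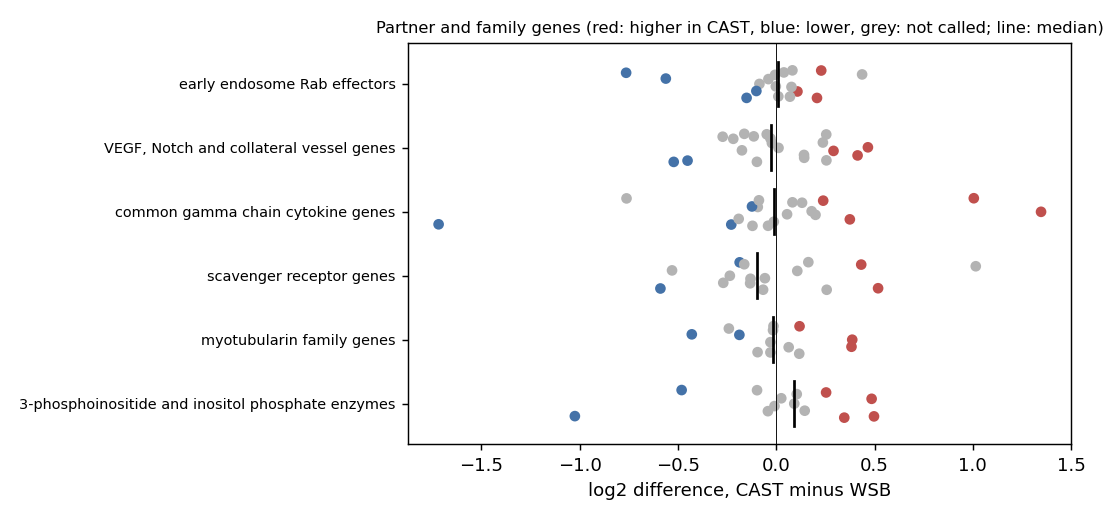
log2 difference, CAST minus WSB, of each tested gene on the 6 lists of partner and family genes; red genes were higher in CAST, blue genes lower and grey genes not called, and the black line is the median of the list. Medians lie between -0.099 (scavenger receptors) and 0.092 (3-phosphoinositide and inositol phosphate enzymes).

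Of 23 genes of the common gamma chain cytokine family, 19 were tested, 4 were higher and 3 lower in CAST and 12 were not called (36.8% called, against 42.7% of all tested genes, median log2 difference -0.012). The ligand gene Il21 had 2 to 11 reads per animal and was not tested, and Il2rg, the common gamma chain, was listed at 0 as stated above. Of the kinases of the receptor, Jak1 was at 190 against 207 CPM (edgeR adjusted p = 0.0246) and Jak3 at 7.78 against 9.11 CPM (edgeR adjusted p = 0.0477). Both calls were narrow: that of Jak1 was lost under 3 of 20 alternatives, among them without CAST_202 (adjusted p = 0.0609) or WSB_120 (adjusted p = 0.0513), and that of Jak3 under 13 of 20, with adjusted p up to 0.107 by edgeR when WSB_147 was left out. Stat3, the main transcription factor of the pathway, was at 53.0 and 54.6 CPM (edgeR adjusted p = 0.536). Il7r, the interleukin 7 receptor, had the smallest p of the list, with 0.427 to 0.532 CPM in CAST and 0.998 to 2.01 CPM in WSB, so that WSB was 3.29-fold higher. Batf, a transcription factor of lymphocytes, was higher in CAST at 0.420 ± 0.116 against 0.167 ± 0.107 CPM (SD, n = 6 each), which rests on 3 to 29 reads per animal. Il15ra was higher in CAST at 8.85 ± 0.502 against 7.50 ± 0.461 CPM, and Stat5b, at 59.0 ± 13 against 52.1 ± 7.57 CPM, was the most abundant gene that was not called and was highest in CAST_142 (84.7 CPM). Lane 5 alone called 4 of these genes and lane 6 alone 3, with 17 tested in each.

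Of 18 scavenger receptor genes besides Msr1, 16 were tested, 2 were higher and 2 lower in CAST and 12 were not called (25% called, against 42.7% of all tested genes, median log2 difference -0.099). Without CAST_142 the counts were 3 higher and 3 lower. Marco, another class A scavenger receptor of macrophages, had 0 to 2 reads per animal and Olr1, an oxidized lipoprotein receptor, 0 to 5, and neither was tested. Cd68, a macrophage sialomucin, was higher in CAST at 6.02 ± 1.06 against 4.46 ± 0.384 CPM (SD, n = 6 each; edgeR adjusted p = 0.0114), and so was the mannose receptor Mrc1, at 5.77 against 4.03 CPM (edgeR adjusted p = 0.0214), a call that was lost without CAST_170 (adjusted p = 0.0508) or WSB_135 (adjusted p = 0.0505). Scarb1, the receptor for high-density lipoprotein, was lower in CAST at 34.1 ± 6.32 against 51.3 ± 3.10 CPM, and Scarb2, a lysosomal membrane protein, at 190 ± 11.2 against 217 ± 6.67 CPM. Megf10, an engulfment receptor of astrocytes, was not called at 45.1 ± 10.8 and 40.3 ± 2.97 CPM, with 67.1 CPM in CAST_142.

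All 13 other myotubularin genes on the list were tested, 3 were higher and 2 lower in CAST and 8 were not called (38.5% called, against 42.7% of all tested genes, median log2 difference -0.016). Mtmr6, which shares the substrates of Mtmr7, was lower in CAST: its levels ran from 103 to 120 CPM in CAST and from 143 to 165.5 CPM in WSB, with means of 115 ± 6.69 and 154 ± 8.39 CPM (SD, n = 6 each) and a log2 difference of -0.43 ± 0.049 (SE; edgeR adjusted p = 9.21e-06). Sbf2, a catalytically inactive member, was higher at 141.8 ± 5.51 against 109 ± 9.18 CPM, and Mtm1, the founding member, at 25.5 ± 4.47 against 19.5 ± 1.54 CPM. Mtmr9, the inactive partner that binds Mtmr7, was not called at 141.7 ± 4.29 and 145 ± 4.99 CPM (edgeR adjusted p = 0.540). The number of called myotubularins was 3 when CAST_200, CAST_201, CAST_203, WSB_100, WSB_135 or WSB_138 was left out singly, against 5 with all animals.

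The kinases that make or use the lipid substrate of Mtmr7 differed in direction. Pik3c3, the class III kinase that makes phosphatidylinositol 3-phosphate, ran from 76.7 to 91.9 CPM in CAST and from 60.1 to 64.8 CPM in WSB, with means of 87.4 ± 5.86 and 62.5 ± 1.83 CPM (SD, n = 6 each) and a log2 difference of 0.49 ± 0.046 (SE; edgeR adjusted p = 1.62e-06). Pikfyve, which phosphorylates that lipid further, was at 130 ± 5.75 against 92.3 ± 4.59 CPM, and no WSB animal reached the lowest CAST animal for either gene. Of the class II kinases, which also make this lipid, Pik3c2b was lower in CAST, at 40.4 ± 4.79 against 56.4 ± 7.25 CPM (SD, n = 6; edgeR adjusted p = 0.00122), and so was Pik3c2g, at 0.419 ± 0.137 against 0.853 ± 0.155 CPM (SD, n = 6; edgeR adjusted p = 0.00207). Inpp4a, a phosphatase that yields phosphatidylinositol 3-phosphate, was at 381 ± 22.6 against 320 ± 13.4 CPM. Pik3r4, the regulatory subunit of Pik3c3, was not called at 59.0 and 58.0 CPM (edgeR adjusted p = 0.665). Of the 13 enzymes on this list, 4 were higher and 2 lower in CAST and 7 were not called (46.2% called, against 42.7% of all tested genes, median log2 difference 0.092).

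Wholly within 500 kb of Il21r or Rabep2 lie 41 other protein-coding genes, of which 37 were tested, 11 were higher and 3 lower in CAST and 23 were not called (37.8% called, against 42.7% of all tested genes, median log2 difference 0.051). Of the 6 around Il21r, 3 were higher and 0 lower, and of the 31 tested around Rabep2, 8 were higher and 3 lower. Kdm8, a gene of a JmjC-domain protein near Il21r, was at 8.68 ± 0.410 against 4.50 ± 0.520 CPM (SD, n = 6), 1.92-fold higher, with no overlap of the strains (edgeR adjusted p = 6.6e-07). Il4ra, the interleukin 4 receptor gene beside Il21r, was higher at 7.10 against 5.48 CPM (edgeR adjusted p = 0.00882). Tufm, a mitochondrial elongation factor near Rabep2, was at 6.95 ± 0.569 against 3.77 ± 0.212 CPM, but shares 58.0% of its 32-base words with other genes, so its count is uncertain. Slx1b, a nuclease subunit, was at 15.9 ± 0.581 against 10.3 ± 0.643 CPM, with 73.7% of its exon bases outside other genes. Aldoa, a glycolytic enzyme, was the most abundant gene not called (621 ± 13.9 and 648 ± 26.3 CPM), and 49.4% of its exon bases lie outside other genes. Atp2a1, which overlaps Rabep2, had 4 to 58 reads per animal, at 0.458 and 0.744 CPM, and was not called (edgeR adjusted p = 0.334). It was at 1.42 CPM in CAST_202 and at most 0.459 CPM in the other CAST animals, and without CAST_202 it was called lower in CAST, with a log2 difference of -1.49 (edgeR adjusted p = 0.0161).

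Wholly within 500 kb of Mtmr7 lie 12 other protein-coding genes, and within that distance of Msr1 lie 0. Of the 12, 7 were tested, and 3 were higher and 0 lower in CAST (42.9% called, against 42.7% of all tested genes, median log2 difference 0.22). Slc7a2, a cationic amino acid transporter, was at 35.6 ± 1.49 against 24.3 ± 1.71 CPM, Zdhhc2, a palmitoyltransferase, at 91.9 ± 3.49 and 79.1 ± 4.79 CPM, and Micu3, a regulator of mitochondrial calcium uptake, at 86.7 ± 4.93 and 75.5 ± 3.38 CPM (SD, n = 6). Vps37a, an endosomal sorting gene that overlaps an end of Mtmr7, was not called at 86.9 ± 5.25 and 92.9 ± 7.52 CPM. Adam20, Adam24 and Adam39 were listed at 0 in all animals.

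**Figure D4:**
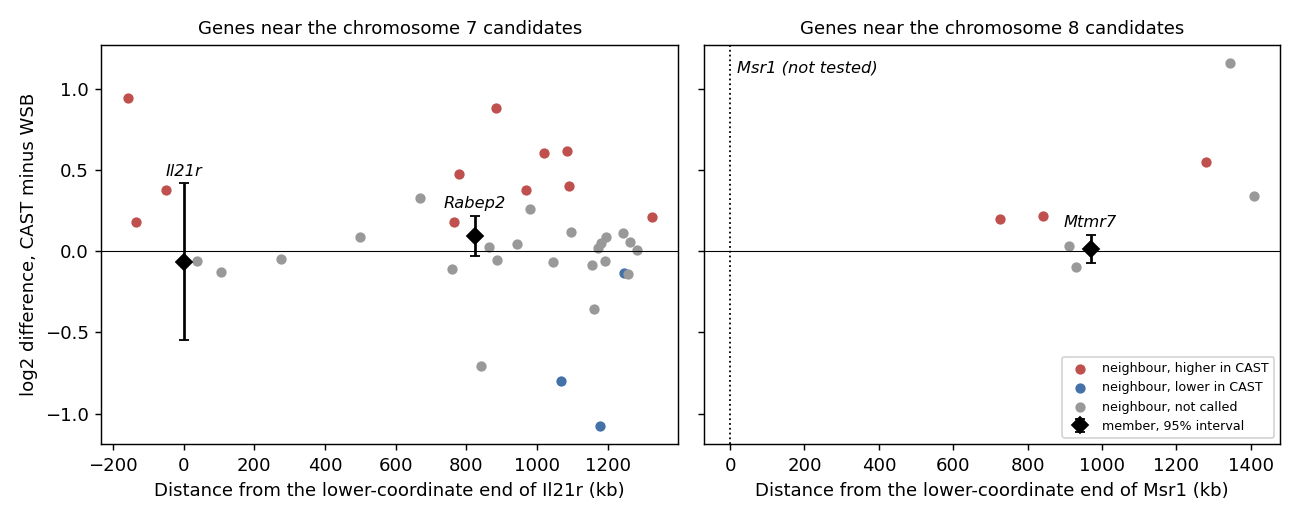
log2 difference, CAST minus WSB, of each tested protein-coding gene wholly within 500 kb of a candidate, against the distance in kb from the lower-coordinate end of Il21r (left) or Msr1 (right); diamonds with bars are the candidates with 95% intervals, and the dotted line marks Msr1, which was not tested. Genes called higher (red) lie on both sides of Rabep2 and Mtmr7 and, within 500 kb of Il21r, on its lower-coordinate side; 3 genes near Rabep2 were called lower (blue), and the intervals of the 3 tested candidates include 0.

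Likeness was measured as Pearson's r of log2 CPM over the 12 animals after each strain's mean was subtracted, among genes with a mean log2 CPM of at least 1, and is a description only. The genes most like Rabep2 were Fam173b (r = 0.958), Tmem80 (r = 0.952) and Tbc1d25 (r = 0.950). Those most like Il21r were Slk (r = 0.953), Diaph2 (r = 0.950) and Slmap (r = 0.946). Those most like Mtmr7 were Gm12111 (r = 0.919), Pik3r4 (r = 0.918) and Pja2 (r = 0.902). These values rest in part on CAST_142: without it r was 0.796 to 0.851 for the Rabep2 genes, 0.858 to 0.869 for the Il21r genes and 0.842 to 0.867 for the Mtmr7 genes, over 11 animals. CAST_142 was the highest CAST animal for Tmem80 (26.95 CPM) and the highest of all animals for Tbc1d25 (18.6 CPM). It was the lowest of all animals for Slk (99.5 CPM), Diaph2 (34.4 CPM), Slmap (130.5 CPM), Gm12111 (3.005 CPM), Pik3r4 (53.4 CPM) and Pja2 (579 CPM). Fam173b (20.1 against 27.2 CPM), Tmem80 (22.6 against 28.8 CPM) and Slk (113 against 125 CPM) were lower in CAST, so a like pattern within strains went with unlike differences between strains. Msr1 had too few reads for this measure.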

How the data were processed

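RNA of the brains of 6 CAST and 6 WSB mice was sequenced on lanes 5 and 6. The authors deposited raw read counts per Ensembl gene, 53465 genes and 5 counters of no gene in each of 24 files. Per the submitters' processing notes, TopHat2 2.1.1, cutadapt, HTSeq and DESeq2 were used, with no roles stated. Genome build, annotation and whether counting used strand: not given in the sources used here. Over the animals, 11.1% to 16.5% of alignments fell in more than 1 gene and 4.04% to 4.95% in none. A further 15.6% to 17.5% were not unique. All of these stayed out of library sizes. The share not unique was 15.6% to 16.1% in CAST and 17.0% to 17.5% in WSB, with no overlap. Its part in the strain differences was not tested. Symbols and coordinates came from GENCODE M21, which holds 53360 of the identifiers; a symbol with several identifiers went to the one with most reads. Lanes were summed per animal, since they repeat a library. The labels number the animals; where they do not state separate processing, p-values measure the spread between these samples only.

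Strains were compared across all genes with edgeR 4.0.16 (R 4.3.3; quasi-likelihood test, robust, TMM, default filter by strain). The SE is the log2 difference over the root of F. The test was checked on counts drawn with known changes at 200 genes. Alternatives used RLE and upper quartile scaling, no filter, DESeq2 1.42.0, limma-voom 3.58.1, a single lane, and animals left out; exact permutation of log2 CPM was added after the data were seen. The candidates and lists were chosen with earlier results of these data known. Besides the candidates, named genes were, per partner list or locus, the 3 called genes with the smallest p and the most abundant uncalled gene; per marker list, the most abundant gene; and the 3 genes most like each candidate with a median of at least 50 reads. The result of 1 gene under this rule is not reported here. Others (such as Rabgef1, Jak1, Jak3, Stat3, Il21, Marco, Olr1, Mrc1, Gja5, Il4ra, Atp2a1, Pik3c2b, Pik3c2g, Lyve1, Cbr2, Pecam1, Tie1, Emcn, Erg, Tek, Vtn, Pdgfrb, Abcc9, Kcnj8, Acta2, Myh11 and Pik3r4 among the enzymes) were named after their values were seen. Markers of blood cells, vessels, glia and neurons were listed to describe the tissue.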

Additional observations from a re-analysis of the deposited data

Results flagged for a closer look

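Among the CAST or WSB values of the named genes, 134 groups of 6 animals were searched for an animal whose gap to the nearest other exceeded Dixon's 95% critical value, which chance exceeds in about 1 in 20 groups, and 21 did. CAST_142 gave 12 of them, with Rabep2 at 15.34 CPM (12.34 to 13.32 CPM in the other 5 CAST animals) and Mtmr7 at 72.14 CPM (77.99 to 81.05 CPM). Also low in CAST_142 were Csf1r at 45.34 CPM, Scarb1 at 21.51 CPM, Rabep1 at 179 CPM and Pja2 at 579.3 CPM. High in it were Fat2 at 549.7 CPM, Slc1a3 at 744.5 CPM, Stat5b at 84.74 CPM, Megf10 at 67.1 CPM, Mtm1 at 34.23 CPM and Tmem80 at 26.95 CPM. In WSB_100, Cdhr1 was high at 169.4 CPM, Sbf2 was high at 127.3 CPM, Stat3 was high at 61.66 CPM and Kdr was low at 15.89 CPM. In WSB_169, Clic4 was low at 84.74 CPM and Il15ra high at 8.367 CPM. Csf1r was high in WSB_147 at 80.02 CPM, Fat2 in WSB_120 at 10.27 CPM and Atp2a1 in CAST_202 at 1.424 CPM.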

How the results depend on the processing

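Mtmr7 kept its sign and stayed uncalled under every alternative run, with log2 differences from 0.0031 to 0.038, and Rabep2 kept its sign, from 0.035 to 0.12. Rabep2 was not called by any model, and its exact permutation gave a difference of 0.091 with an unadjusted p = 0.0498. Il21r was never called and turned sign: it ranged from -0.17 to 0.079 with 1 animal left out, and was 0.095 without CAST_142 and WSB_100 and 0.057 in the exact permutation without CAST_142. Msr1 ranged from -0.10 to 0.31; RLE, upper quartile and limma-voom gave it no value. Genes called in all numbered 6567 to 9537. The gamma chain count fell from 7 to 4 on lane 5 and 3 on lane 6, where fewer genes were tested, and the myotubularin count ranged from 3 to 5 with 1 animal left out. Of 63 other named genes, 47 were the same throughout, 5 lost and 4 gained a call, and 7 turned. With 1 animal left out, Adam10 ranged from -0.0097 to 0.037, Csf1r from -0.055 to 0.092, Cd79a from -0.11 to 0.16, Mbp from -0.15 to 0.096, Cdhr1 from -0.67 to 0.59 and Tbc1d25 from -0.052 to 0.051. Without CAST_142 and WSB_100 the values were -0.0041 for Adam10, 0.083 for Csf1r, -0.020 for Cd79a, 0.79 for Cdhr1 and -0.074 for Tbc1d25. With limma-voom, Mbp was 0.024 and Ttr 0.18. The cause was not tested. No paired analysis was possible because the strains share no animal numbers. Depth limits Msr1, with 4 to 15 reads per animal, and Il21r is limited by its spread between animals as well as by its 30 to 91 reads.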
